A study of Bos taurus with 15 samples.

Results

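The focal adhesion adaptor genes described here are VCL, TLN1, TNS1, ILK, PTK2, PXN, FLNA, ACTN1, ACTN4 and ZYX. They were taken by symbol as 10 of the 38001 gene rows of a bovine expression table, and each symbol matched 1 row. Of the 10, 9 had enough counts to be tested, among 11834 genes tested in all. RNA was sequenced from engineered meniscal tissue at day 28, made from bovine meniscal fibrochondrocytes, the cells that build the fibrous and cartilage-like matrix of the knee meniscus. There were 3 libraries in each of 5 groups: the post and the middle region of tissues from molds with post anchors, the post and the middle region of tissues from molds without anchors, and cells in collagen with no mold. Every group had the same culture, per the labels: 3 days in growth medium with 10% serum, then 25 days in chondrogenic medium with 50 µg/ml ascorbic acid, 10 ng/ml TGF-β3 and dexamethasone. The labels do not say how many animals gave cells, nor whether replicates, or the post and the middle region, came from separate tissues. A p-value here thus covers no more than the spread among these libraries, and that spread may be technical.

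Focal adhesions are the sites where integrins, the matrix receptors of the cell surface, are joined to the actin cytoskeleton. Talin binds the integrin tail, vinculin strengthens the link to actin under load, and the alpha-actinins and filamin cross-link the actin filaments that pull on it. FAK, paxillin and the complex around ILK pass signals at these sites, and zyxin joins strained adhesions and stress fibres. In the meniscus, fibrochondrocytes use such sites to hold and tension a collagen-rich matrix.

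Library totals were 2986944 to 7415701 counts in the 12 molded libraries and 2060781 to 4466562 counts in the 3 no-mold libraries. The share of counts in 13 mitochondrial genes was 1.52% to 2.36% in molded and 1.4% to 1.74% in no-mold libraries. No-mold library 1, no-mold library 3 and anchored middle library 2 were the 3 shallowest, and anchored middle library 2 also stood apart from all others on the second principal component. As a check of the labelled cell type, all 8 fibrochondrocyte markers, SOX9, COL2A1, ACAN and COMP among them, passed the filter on low counts. Of the markers of other cells, 0 of 7 endothelial, 1 of 8 leukocyte (CD14), 1 of 7 skeletal muscle (ACTA1), 6 of 7 mural, 1 of 5 Schwann cell (S100B, which chondrocytes also express) and 2 of 5 red blood cell markers did, and MYH2, MYOD1, MYOG and ALAS2 were at 0 in all libraries. Summed over each list, molded and no-mold libraries had 0.916 to 2.01 and 0.914 to 2.53 CPM of endothelial markers, 5.71 to 9.34 and 6.17 to 10.6 CPM of leukocyte markers, 1.28 to 5.75 and 2.74 to 9.11 CPM of skeletal muscle markers, and 0.146 to 6.47 and 2.98 to 8.1 CPM of red blood cell markers. For mural markers the sums were 86.8 to 140.6 CPM in molded and 120.1 to 137.1 CPM in no-mold libraries, and for Schwann cell markers 329.1 to 468.8 CPM and 431.7 to 445.0 CPM. Each of these ranges overlapped between molded and no-mold libraries. The part of depth and of other cells in the results below was not tested.

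The first comparison asked how the adaptor genes differed between tissue grown in a mold and cells in collagen without one. ACTN1, which encodes alpha-actinin-1, was 1.35-fold higher in molded tissue, and ZYX, which encodes zyxin, was lower, at 0.721 of the no-mold level. The other 7 tested members did not pass the threshold of an adjusted p of 0.05 in edgeR's quasi-likelihood test, with Benjamini-Hochberg adjustment over all 11834 genes. Thus 2 of 9 members were called (22.2%), 1 in each direction, where 16% of all tested genes were called (8.04% higher, 7.91% lower), so the share of called members was not far from the background. The median log2 fold change was 0.01 over the 9 members and 0.0 over all genes. Where libraries are said below not to overlap between groups, the share of all genes of which this holds was not counted. In bulk RNA, fewer cells that express a gene and less of its RNA per cell cannot be told apart.

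**Figure D1:**
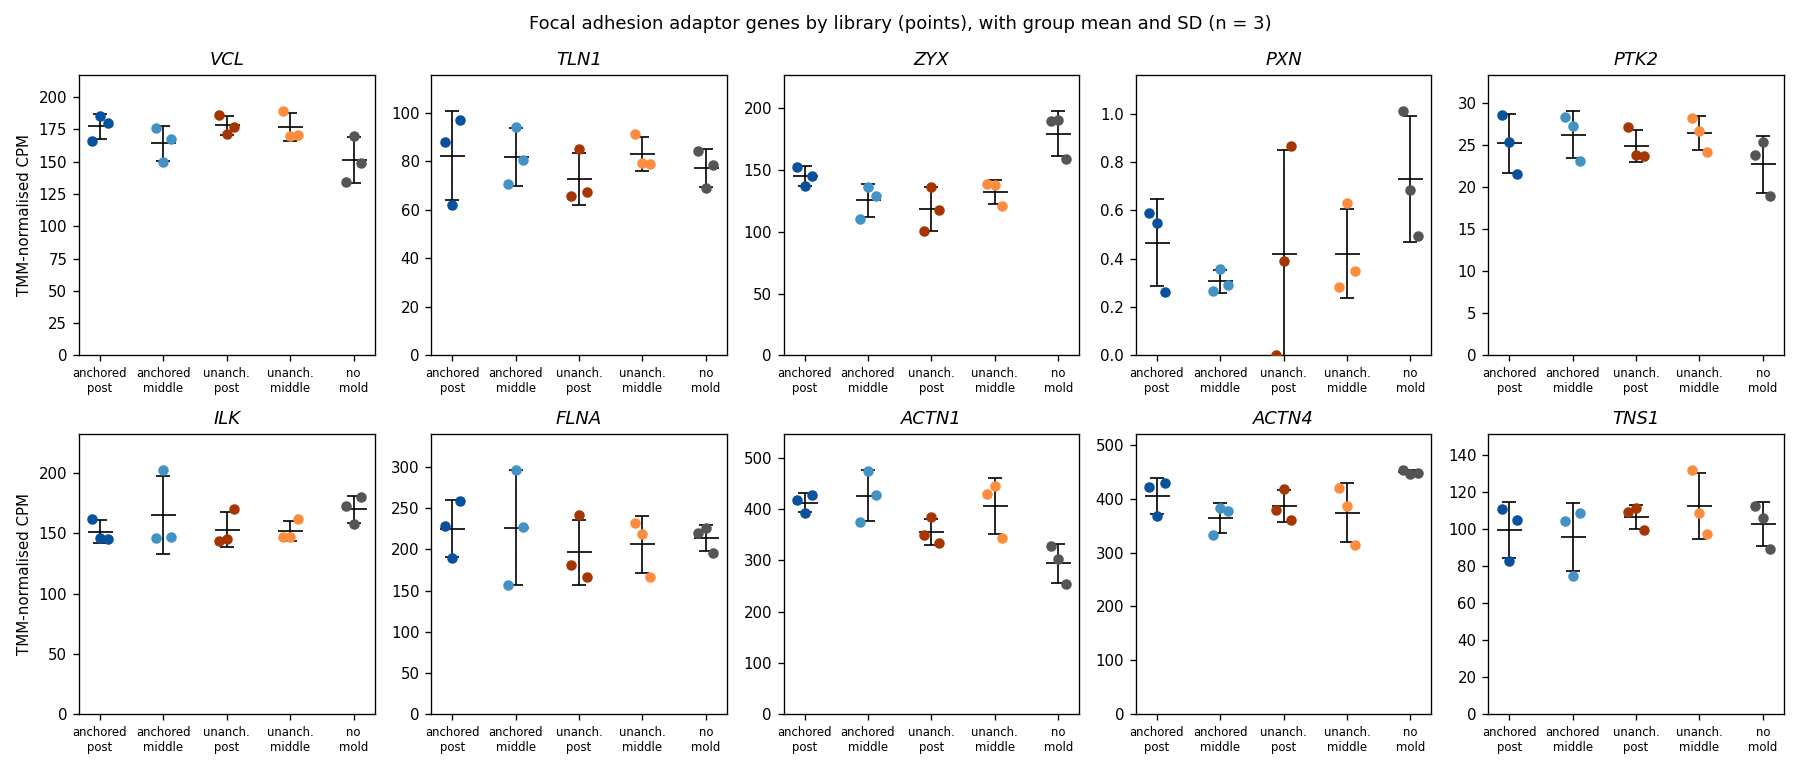
TMM-normalised CPM (y axis, each panel with its own scale) of the 10 focal adhesion adaptor genes by group (x axis), with a point per library and the mean with its SD over 3 libraries. In every molded library ACTN1 is higher, and ZYX and ACTN4 are lower, than in every no-mold library, and PXN stays at or below 1.01 CPM in all 15 libraries, where its error bars are clipped at 0.

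ACTN1 cross-links actin filaments and anchors them to adhesions. Its values, in TMM-normalised CPM (counts scaled to library size and composition), were 417.8, 392.7 and 427.2 in the anchored post libraries and 374.7, 474.5 and 428.3 in the anchored middle libraries. They were 348.5, 383.9 and 333.1 in the unanchored post libraries, 429.8, 445.1 and 343.1 in the unanchored middle libraries, and 327.1, 302.4 and 253.1 in the no-mold libraries. The lowest molded library, at 333.1, was thus above the highest no-mold library, at 327.1, but only narrowly. The mean over the 12 molded libraries was 399.9 ± 44.4 CPM, against 294.2 ± 37.7 CPM in no mold (SD, n = 3). The log2 fold change was 0.44 with a standard error of 0.096 (edgeR adjusted p = 0.0029). This call rests in part on no-mold library 3, the lowest of all: without it the log2 fold change was 0.34 (adjusted p = 0.0536). Without the 3 shallowest libraries, which leaves 1 no-mold library, it was 0.38 (adjusted p = 0.141).

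ZYX encodes a LIM-domain protein that recruits the actin-elongating proteins of the Ena/VASP family. It had 152.8, 136.8 and 145.5 CPM in anchored post, 110.8, 136.5 and 129.0 CPM in anchored middle, and 100.7, 136.5 and 117.4 CPM in unanchored post libraries. The unanchored middle libraries had 138.5, 137.9 and 121.2 CPM, and the no-mold libraries 189.4, 190.4 and 158.8 CPM. Every molded library was below every no-mold library, the highest molded one being anchored post library 1. The molded mean was 130.3 ± 15.0 CPM (SD, n = 12), against 179.5 ± 18 CPM in no mold (n = 3). The log2 fold change was -0.47 with a standard error of 0.089 (edgeR adjusted p = 0.000873). Leaving out any 1 library kept the call, with adjusted p between 0.000259 and 0.0147, and without the 3 shallowest libraries the log2 fold change was -0.57 (adjusted p = 0.0164).

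ACTN4, the other alpha-actinin of non-muscle cells, was not called. It had 421.1, 367.1 and 428.5 CPM in anchored post, 332.8, 382.2 and 376.9 CPM in anchored middle, 378.4, 418.2 and 360.4 CPM in unanchored post and 420.3, 386.7 and 313.2 CPM in unanchored middle libraries. The no-mold libraries had 452.7, 445.7 and 447.6 CPM, all above the molded ones and close to one another. The log2 fold change was -0.23 (SE 0.085), with an unadjusted p of 0.0114 and an edgeR adjusted p of 0.0639, which missed the threshold. DESeq2 gave -0.24 with an adjusted p of 0.0416, and edgeR passed ACTN4 without unanchored middle library 1 (adjusted p = 0.0412) or without anchored middle library 2 (adjusted p = 0.0406). The ACTN4 count was not a whole number in 12 of the 15 libraries, against 3 for ACTN1 and 5 for ZYX, as when a read is shared between places in the genome.

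**Figure D2:**
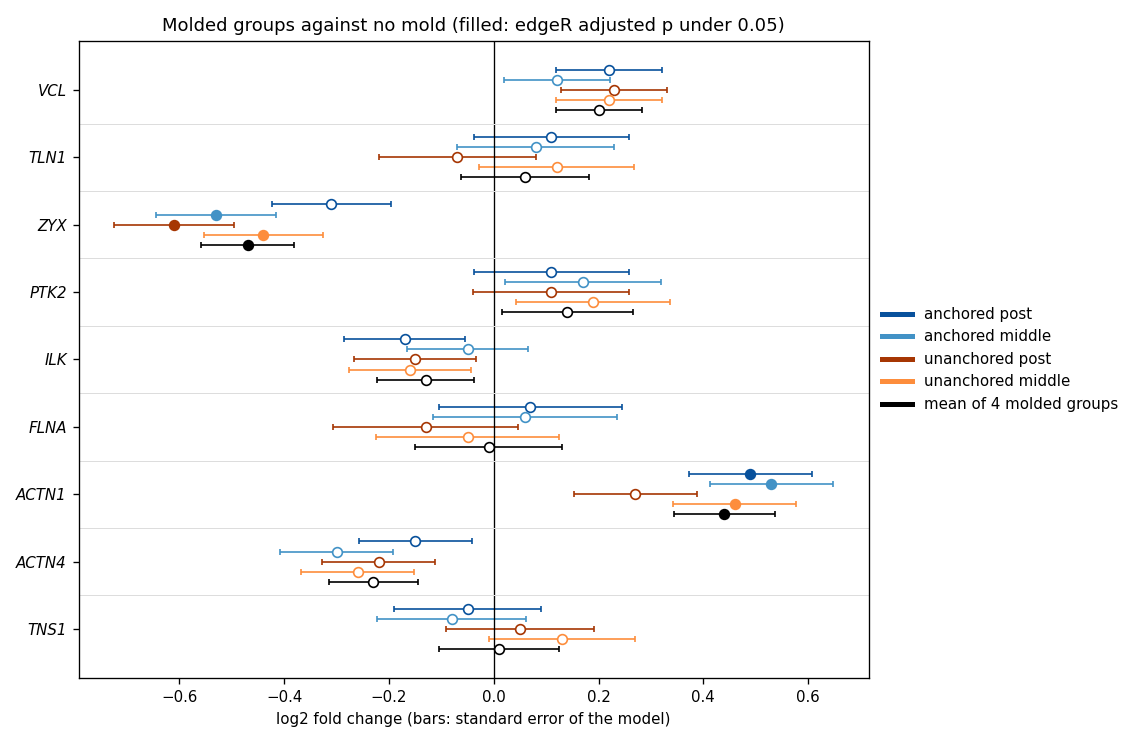
Log2 fold change (x axis, bars are the standard error of edgeR's model) of the 9 tested adaptor genes (y axis) for the mean of the 4 molded groups and for each molded group against no mold. ACTN1 lies to the right of 0 and ZYX and ACTN4 lie to the left in every molded group, whether or not a group passed the threshold.

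The ratio of ACTN1 to ZYX within a library, chosen after these values were seen and given with no test, restates the same split. It was 2.85 ± 0.103 in anchored post, 3.39 ± 0.0791 in anchored middle, 3.04 ± 0.367 in unanchored post, 3.05 ± 0.203 in unanchored middle and 1.64 ± 0.0787 in no-mold libraries (SD, n = 3 each). The molded libraries ran from 2.73 to 3.48, against 1.59 to 1.73 in no mold. ACTN1 over ACTN4 was 1.02 ± 0.0435 in anchored post, 1.17 ± 0.064 in anchored middle, 0.921 ± 0.00314 in unanchored post, 1.09 ± 0.0644 in unanchored middle and 0.655 ± 0.0811 in no mold. The libraries read mainly transcript ends and no length was used, so a ratio compares libraries and not the levels of the genes with each other.

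**Figure D3:**
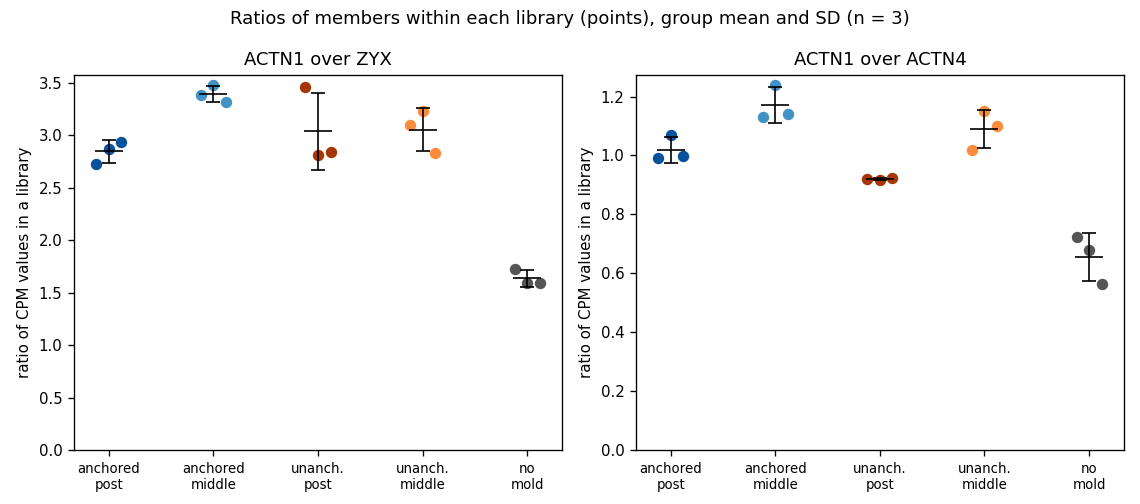
Ratio of ACTN1 to ZYX and of ACTN1 to ACTN4 within each library (y axis, no unit) by group (x axis), with a point per library and the mean with its SD over 3 libraries. The ACTN1 to ZYX ratio lies between 2.73 and 3.48 in the 12 molded libraries and between 1.59 and 1.73 in the 3 no-mold libraries.

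Each molded group was also set against no mold, with the same 3 no-mold libraries in all 4 comparisons. The anchored post group had 1 of 9 members called (5.56% of all genes), and it was ACTN1, at a log2 fold change of 0.49 (SE 0.117, and an adjusted p of 0.0147 in edgeR). ZYX was at -0.31 there (SE 0.113, adjusted p = 0.109). Without no-mold library 3, ACTN1 in the anchored post group was at 0.39 (adjusted p = 0.107), and without the 3 shallowest libraries at 0.45 (adjusted p = 0.201).

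In the anchored middle group 2 of 9 members were called (13.3% of all genes), ACTN1 at 0.53 (SE 0.117, edgeR adjusted p = 0.00397) and ZYX at -0.53 (SE 0.115, adjusted p = 0.00351). DESeq2 also called ACTN4, with an adjusted p of 0.0327, where edgeR gave -0.30 and 0.0653. ACTN4 passed in edgeR without unanchored middle library 3 (adjusted p = 0.0439), anchored middle library 2 (0.048) or anchored post library 2 (0.0467). Anchored middle library 2 held the highest ACTN1 value, and without it ACTN1 was at 0.45 (adjusted p = 0.0108). Without the 3 shallowest libraries ACTN1 was at 0.41 (adjusted p = 0.155).

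In the unanchored post group the called member was ZYX, 1 of 9 (9.02% of all genes), at -0.61 (SE 0.114, edgeR adjusted p = 0.00167), its lowest value in any group. ACTN1 was at 0.27 (SE 0.117, adjusted p = 0.155). In the unanchored middle group 2 of 9 were called (14.8% of all genes), ACTN1 at 0.46 (SE 0.117, adjusted p = 0.00931) and ZYX at -0.44 (SE 0.114, adjusted p = 0.0109). Several single libraries decided these last calls: ACTN1 was at 0.40 without unanchored middle library 2 (adjusted p = 0.0558) and at 0.37 without no-mold library 3 (adjusted p = 0.0774), and ZYX was at -0.39 without no-mold library 2 (adjusted p = 0.0524). Without the 3 shallowest libraries ACTN1 was at 0.42 (adjusted p = 0.116). That ACTN1 passed in some groups and ZYX in others does not show that the groups differ, which the anchoring and region comparisons below test.

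Among the members that link integrins to actin, VCL, which encodes vinculin, had 166.2, 185.4 and 180.2 CPM in anchored post and 176.0, 149.4 and 167.3 CPM in anchored middle libraries. It had 186.1, 171.1 and 176.9 CPM in unanchored post, 188.9, 170.1 and 170.4 CPM in unanchored middle and 134.2, 169.8 and 148.9 CPM in no-mold libraries. No-mold library 2, at 169.8, lay within the molded range. The log2 fold change of molded tissue against no mold was 0.20 (SE 0.082), with an unadjusted p of 0.0252 and an edgeR adjusted p of 0.107. Without no-mold library 2 it was 0.30 and passed the threshold (adjusted p = 0.0425).

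TLN1, which encodes talin-1, averaged 82.3 ± 18.2, 81.7 ± 11.8, 72.6 ± 10.6 and 82.9 ± 6.96 CPM in the anchored post, anchored middle, unanchored post and unanchored middle groups, against 77.1 ± 7.71 CPM in no mold (SD, n = 3 each). Both the lowest and the highest library, 61.9 and 97.1 CPM, were anchored post ones, so the spread within that group covered all the others. TNS1, which encodes tensin-1, an adaptor of the integrin tail and actin, averaged 99.5 ± 14.9, 95.7 ± 18.6, 106.6 ± 6.34 and 112.5 ± 17.7 CPM in the same molded groups, against 102.5 ± 11.9 CPM in no mold. Against no mold, molded tissue was at a log2 fold change of 0.06 for TLN1 (SE 0.122, edgeR adjusted p = 0.798) and of 0.01 for TNS1 (SE 0.115, adjusted p = 0.954).

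Of the signalling members, ILK, a pseudokinase that holds PINCH and parvin at the integrin tail, averaged 151.1 ± 9.49 CPM in anchored post, 165.1 ± 32.2 in anchored middle, 152.9 ± 14.7 in unanchored post, 151.9 ± 8.47 in unanchored middle and 169.9 ± 11.3 in no-mold libraries (SD, n = 3 each). Its log2 fold change of molded tissue against no mold was -0.13 (SE 0.093, edgeR adjusted p = 0.377). PTK2, which encodes FAK, the tyrosine kinase of focal adhesions, averaged 25.2 ± 3.5, 26.2 ± 2.78, 24.9 ± 1.92 and 26.4 ± 2.0 CPM in the anchored post, anchored middle, unanchored post and unanchored middle groups and 22.7 ± 3.4 CPM in no mold, a log2 fold change of 0.14 (SE 0.125, adjusted p = 0.482). The groups overlapped for both genes.

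PXN encodes paxillin, the scaffold to which FAK and vinculin bind. It had 34 counts in all 15 libraries together, 0 to 5 in each: 8 in anchored post, 5 in anchored middle, 7 in unanchored post, 8 in unanchored middle and 6 in no-mold libraries. Its group means were 0.467, 0.306, 0.418, 0.421 and 0.732 CPM in that order. Unanchored post library 1 had 0 of 5994190 counts, which allows a level of up to 0.5 CPM, by counting error alone. With so few counts PXN was below the filter and was not tested, and no difference between groups was detectable at this depth. The libraries read mainly transcript ends, and the annotation is not given. Low expression of PXN and a fault in how its 3' end was annotated or read cannot be told apart here.

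FLNA, which encodes filamin A, a large cross-linker of actin that also binds integrin tails, had the widest spread within a group of any tested member. Its anchored middle libraries had 156.1, 295.6 and 226.7 CPM, the lowest and the highest of all 15. It averaged 224.9 ± 34.7 CPM in anchored post, 226.1 ± 69.8 in anchored middle, 196.3 ± 39.4 in unanchored post, 206.0 ± 34.4 in unanchored middle and 213.6 ± 15.6 in no mold (SD, n = 3 each), where molded tissue stood at a log2 fold change of -0.01 against no mold (SE 0.141, edgeR adjusted p = 0.973). Anchored middle library 2, the one that stood apart, held the highest FLNA, ILK (202.2 CPM) and ACTN1 (474.5 CPM) values and the lowest TNS1 value (74.4 CPM) of all libraries.

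The second comparison asked whether anchoring changed the adaptor genes. None of the 9 was called by edgeR in the post region, in the middle region or in the average of both, where 0% of all tested genes were called in each. At an unadjusted p under 0.05 there was 1 member in the post region, 0 in the middle region and 0 in the average, and DESeq2 called 0 in all of them. Over all genes, 3.84% in the post region, 3.09% in the middle region and 5.48% in the average had an unadjusted p under 0.05. The member in the post region was ZYX, whose 3 anchored libraries, 136.8 to 152.8 CPM, lay above the 3 unanchored ones, 100.7 to 136.5 CPM, by a log2 fold change of 0.30 (SE 0.111, unadjusted p = 0.0139, edgeR adjusted p = 1.0). ACTN1 likewise did not overlap in the post region, at 392.7 to 427.2 CPM with anchors and 333.1 to 383.9 CPM without (log2 fold change 0.22, SE 0.114, unadjusted p = 0.0704, adjusted p = 1.0). In the middle region 0 of 9 members separated in this way. The share of all genes that separated was not counted, so no effect of anchors is read from the lack of overlap. The 9 log2 fold changes, anchored against unanchored, ran from -0.10 to 0.30 in the post region and from -0.21 (TNS1) to 0.12 (FLNA) in the middle region.

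**Figure D4:**
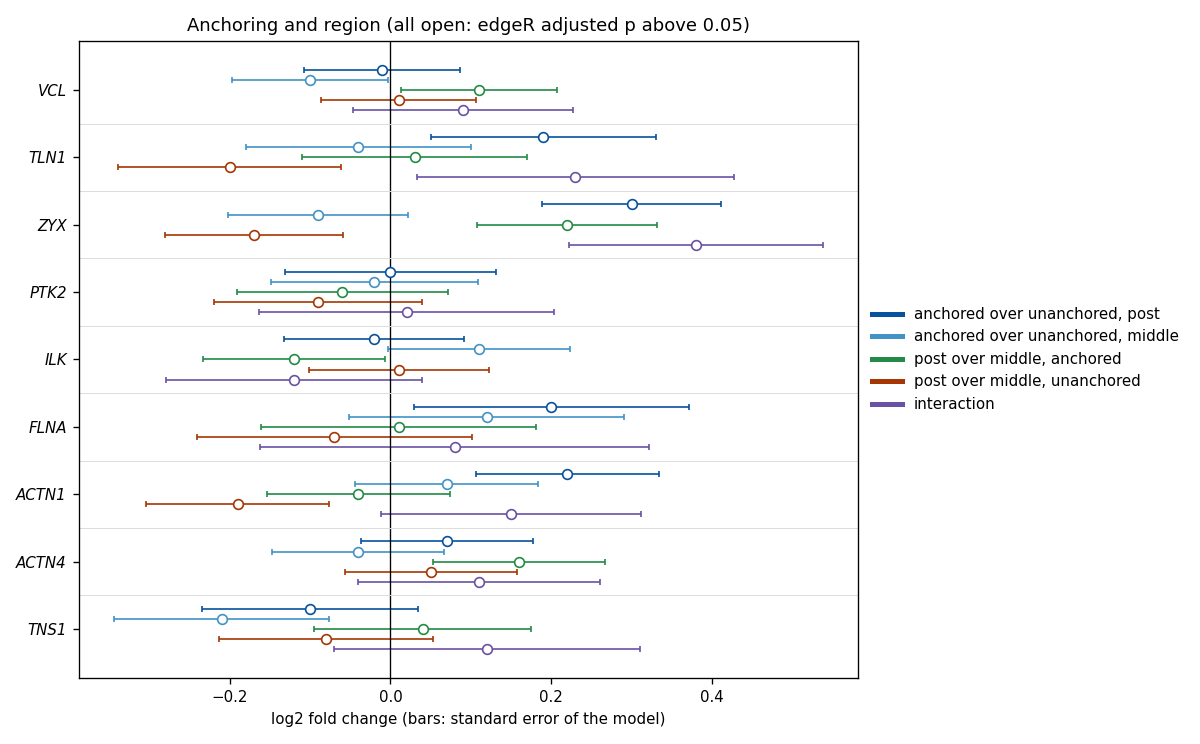
Log2 fold change (x axis, bars are the standard error of edgeR's model) of the 9 tested adaptor genes (y axis) for anchored against unanchored molds, for post against middle regions and for the interaction of both. No gene passed the threshold in any of these comparisons, and ZYX lies farthest above 0, at 0.38 for the interaction and 0.30 for anchoring in the post region.

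The interaction, which asks whether the effect of anchors differed between the post and the middle region, called 0 of 9 members with edgeR and 0 with DESeq2 (0% of all genes). Over all genes, 1.88% had an unadjusted p under 0.05. ZYX had the largest value, 0.38 in log2 units (SE 0.158, unadjusted p = 0.0232, edgeR adjusted p = 1.0), and was the 1 member with an unadjusted p under 0.05.

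The third comparison set the post region against the middle region. Neither edgeR nor DESeq2 called any of the 9 members within anchored tissue, within unanchored tissue or in the average over both mold types. Over all genes edgeR called 1.92%, 0.448% and 8.51%, in that order. No member had an unadjusted p under 0.05, where 14.0%, 13.9% and 23.4% of all genes did. The log2 fold changes ran from -0.12 (ILK) to 0.22 (ZYX) within anchored tissue, with a lowest adjusted p of 0.391, and from -0.20 (TLN1) to 0.05 within unanchored tissue, with a lowest adjusted p of 0.466. In the average they ran from -0.12 (ACTN1) to 0.10 (ACTN4), with a lowest adjusted p of 0.401. For ZYX within anchored tissue the same 3 anchored post libraries as above, 136.8 to 152.8 CPM, lay above the 3 middle ones, 110.8 to 136.5 CPM (SE 0.112). The other members overlapped, and no effect of region is read from this separation.

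The partners of these genes were read from 8 lists of 110 genes. Beside each count, the share of all tested genes called in molded tissue against no mold is 8.04% higher and 7.91% lower, 29.7% of all tested genes had an unadjusted p under 0.05, and the median log2 fold change of all genes is 0.0. These shares belong to edgeR's main fit. Counts from DESeq2 or from other refits have no share of all genes beside them, so a changed count is not a result about that list. Non-muscle actomyosin genes were the list with the most higher members: 5 of 19 rose in molded tissue, 0 fell, 6 had an unadjusted p under 0.05, a share near that of all genes, and DESeq2 called 5, with a median log2 fold change of 0.09. CALD1, which encodes the actin- and tropomyosin-binding protein caldesmon, had 1184.8 ± 103.9 CPM in molded tissue (SD, n = 12) and 733.5 ± 44.2 CPM in no mold (n = 3), which was 0.69 higher on the log2 scale (SE 0.09, and an adjusted p of 1.79e-05 in edgeR). TPM4, a tropomyosin, had means of 2017.5 and 1386.7 CPM (0.54, SE 0.091, adjusted p = 0.000311), and ROCK1, a kinase of the contractile apparatus, 126.8 and 93.1 CPM (0.43, SE 0.094, adjusted p = 0.00303). The count was 3 without no-mold library 1 or without no-mold library 3, and 1 without the 3 shallowest libraries, where TPM4 (adjusted p = 0.105) and ROCK1 (adjusted p = 0.13) no longer passed.

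Zyxin-type LIM and actin-bundle proteins were called in both directions: of 24 tested, 3 rose and 4 fell, 12 had an unadjusted p under 0.05, DESeq2 called 7, and the median was -0.08. NEXN, which encodes the actin-binding protein nexilin, had 224.6 ± 37.4 CPM in molded tissue and 121.3 ± 6.06 CPM in no mold (0.87, SE 0.116, edgeR adjusted p = 1.94e-05). PDLIM1, a partner of alpha-actinin, had means of 2.31 and 5.38 CPM (-1.17, SE 0.259, adjusted p = 0.00332), and EVL, of the Ena/VASP family that zyxin recruits, 98.0 and 128.0 CPM (-0.39, SE 0.095, adjusted p = 0.0061). EVL missed the threshold without no-mold library 2 (adjusted p = 0.097), and PDLIM1 without the 3 shallowest libraries (adjusted p = 0.227). The higher count was 1 without no-mold library 1 or 3, and the lower count was 2 without no-mold library 3 or with no filter on low counts. Without the 3 shallowest libraries both were 1.

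Of the partners of ILK, 2 of 5 tested genes fell and 0 rose in molded tissue, 3 had an unadjusted p under 0.05, DESeq2 called 2, and the median was -0.07. Both were parvins, which join ILK to actin. PARVB had 11.7 ± 2.59 CPM in molded tissue and 21.6 ± 0.736 CPM in no mold (-0.90, SE 0.168, edgeR adjusted p = 0.000814). PARVA, at 1.88 and 4.43 CPM (-1.25, SE 0.353, adjusted p = 0.0172), missed the threshold without no-mold library 2 (adjusted p = 0.203) or 3 (adjusted p = 0.051) and without the 3 shallowest libraries. Without anchored middle library 2, or with no filter on low counts, 1 gene rose.

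The other lists had few calls in molded tissue against no mold. In integrin linkage, 1 of 9 tested genes rose and 0 fell, 4 had an unadjusted p under 0.05, DESeq2 called 2, and the median was -0.13. RAP1A, a small GTPase that promotes integrin activation, had 134.2 ± 10.4 and 110.4 ± 7.88 CPM (0.28, SE 0.083, edgeR adjusted p = 0.0229), and missed the threshold without no-mold library 1 (adjusted p = 0.137), without no-mold library 3 (adjusted p = 0.0687) and without the 3 shallowest libraries. With 1 library left out, the higher count was 2 without anchored middle library 2, and the lower count was 2 without unanchored post library 2 and 1 without anchored middle library 2 or 3, anchored post library 1 or no-mold library 1 or 2. The lower count was also 2 with DESeq2's size factors, 1 with the DESeq2 test and 1 with no filter on low counts. Of adhesion kinases and signalling scaffolds, 0 of 17 rose and 1 fell, 4 had an unadjusted p under 0.05, DESeq2 called 1, and the median was -0.14. CSK, which encodes the kinase that restrains Src, had 18.9 ± 1.55 and 26.4 ± 3.16 CPM (-0.45, SE 0.112, adjusted p = 0.00772), and missed it without no-mold library 1 (adjusted p = 0.0735) and without the 3 shallowest libraries. Of this list, 1 gene rose without unanchored post library 2 or 3, anchored post library 3 or no-mold library 2, and 2 fell without unanchored post library 2, anchored middle library 2 or no-mold library 2.

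Of integrins, 0 of 13 rose and 1 fell, with 1 gene at an unadjusted p under 0.05, 1 called by DESeq2 and a median of 0.09. It was ITGA5, the alpha chain of a fibronectin receptor, at 242.0 and 299.7 CPM (-0.31, SE 0.084, edgeR adjusted p = 0.0125), whose call was lost without no-mold library 1 (adjusted p = 0.0903), without no-mold library 2 (adjusted p = 0.0735) and without the 3 shallowest libraries. Of SRF, the transcription factor of many actin cytoskeleton genes, and its coactivators, 0 of 3 rose and 1 fell, with 1 at an unadjusted p under 0.05, 1 called by DESeq2 and a median of -0.06. SRF itself had 8.93 and 13.4 CPM (-0.59, SE 0.167, adjusted p = 0.0177), and missed the threshold without no-mold library 1 (adjusted p = 0.0653), 2 (0.102) or 3 (0.0586) and without the 3 shallowest. None of the 5 tested paralogs of the adaptor genes was called by edgeR, 3 had an unadjusted p under 0.05, and DESeq2 called 1. With edgeR, 1 paralog fell without anchored post library 1, anchored middle library 2 or 3, unanchored post library 2 or no-mold library 1.

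**Figure D5:**
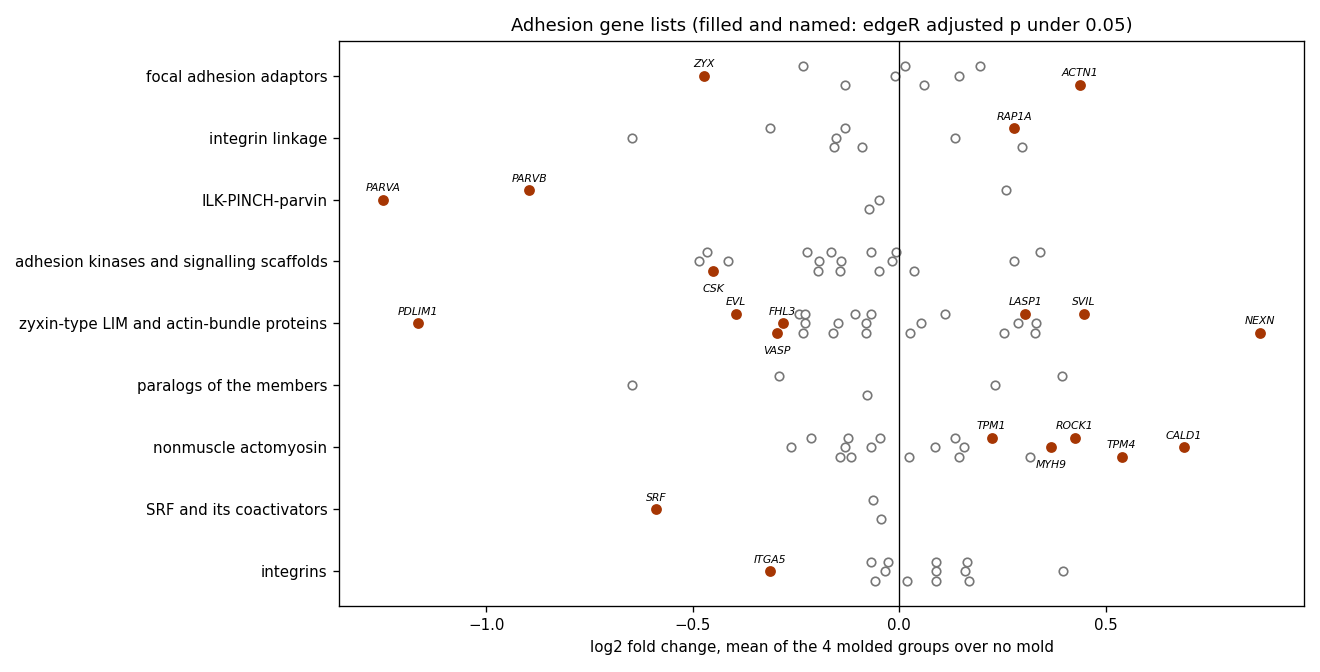
Log2 fold change of molded tissue against no mold (x axis) for every tested gene of the focal adhesion adaptors and of 8 lists of their partners (y axis), with a point per gene and genes past the threshold marked. Called actomyosin genes lie to the right of 0, where CALD1 is at 0.69, and the called parvins lie to the left, where PARVB is at -0.90.

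Some partners of the adaptor genes were called between the post and the middle region averaged over mold types, where 3.32% of all genes were higher and 5.19% lower in post and 23.4% had an unadjusted p under 0.05. A difference between the adaptors and the lists was not tested. In actomyosin, 3 of 19 genes were higher and 2 lower in the post region. The lower ones were ROCK1 and ROCK2, kinases that drive myosin contraction. ROCK1 had 107.5 ± 11.9 CPM in post and 146.2 ± 12.1 CPM in middle libraries (-0.44, SE 0.075, edgeR adjusted p = 0.000662, SD, n = 6 each), and ROCK2 had 71.6 ± 5.39 and 100.8 ± 19.2 CPM (-0.48, SE 0.102, adjusted p = 0.00464). MYL12B, a myosin light chain whose count was mostly not whole, had 169.8 ± 10.5 and 135.4 ± 6.36 CPM (0.33, SE 0.068, adjusted p = 0.00384). Without unanchored middle library 2 the higher count was 1, and with DESeq2 it was 5.

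In the same comparison of post with middle, 2 of 13 integrins were lower and 0 higher, 7 had an unadjusted p under 0.05 and DESeq2 called 3. ITGA10, a collagen-binding integrin chain of chondrocytes, had 59.1 ± 9.19 CPM in post and 81.9 ± 5.9 CPM in middle libraries (-0.48, SE 0.089, edgeR adjusted p = 0.00171). ITGA11, a collagen-binding chain of fibroblasts, had 8.25 and 12.5 CPM (-0.61, SE 0.175, adjusted p = 0.0302). ITGA11 missed the threshold without unanchored middle library 1 (adjusted p = 0.112) or 2 (0.101), unanchored post library 3 (0.0754), anchored middle library 3 (0.119), or anchored post library 2 (0.0595) or 3 (0.064). The lower count was 4 without anchored middle library 2, and the higher count was 1 without anchored middle library 1 or unanchored middle library 3.

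Of the LIM and actin-bundle list, 2 of 24 genes were higher and 2 lower in post. SVIL, which encodes supervillin, an actin- and myosin-binding protein, had 17.5 ± 1.63 CPM in post and 24.5 ± 2.17 CPM in middle libraries (-0.48, SE 0.09, edgeR adjusted p = 0.00177). VASP, the zyxin partner, had means of 154.7 and 130.3 CPM (0.25, SE 0.066, adjusted p = 0.0198), and missed the threshold without unanchored middle library 2 (adjusted p = 0.0684), anchored middle library 3 (0.0555) or anchored post library 3 (0.064). NEXN, at 200.2 and 249.0 CPM (-0.32, SE 0.091, adjusted p = 0.0299), missed it without unanchored middle library 1 (0.0594) or 2 (0.0684), unanchored post library 2 (0.0873), anchored middle library 3 (0.0827) or anchored post library 3 (0.0908). The higher count was 0 without any of the 3 libraries named for VASP and 1 without anchored post library 1, unanchored post library 3 or unanchored middle library 3. The lower count was 1 without any of the 5 libraries named for NEXN.

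In integrin linkage, the ILK partners, the kinases and scaffolds and the SRF list, edgeR and DESeq2 called 0 genes between post and middle, and 1, 0, 2 and 2 genes had an unadjusted p under 0.05. Without anchored middle library 2 or 3, or anchored post library 2, edgeR called 1 kinase or scaffold gene higher in post. Between anchored and unanchored molds averaged over regions, edgeR and DESeq2 called 0 genes of any list, with 0 to 2 genes a list at an unadjusted p under 0.05. Over all genes, edgeR called 0% there and 5.48% had an unadjusted p under 0.05.

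The genes whose pattern over the 15 libraries was most like that of each called adaptor were found by the root mean square difference of log2 CPM, centred on each gene's mean. The search covered 7210 tested genes with a symbol and a mean of at least 10 CPM, so genes without a symbol were left out. For ACTN1 they were MAP7D3, a microtubule-binding protein, at 0.09, and TRIP6, a LIM protein of the zyxin family, at 0.108. For ZYX they were POFUT2, an enzyme that adds fucose to proteins, at 0.114, and BID, a protein of cell death, at 0.116. Among the other adaptors, the nearest to ACTN1 was PTK2 at 0.197 and the nearest to ZYX was ACTN4 at 0.158, while ACTN1 and ZYX were 0.38 apart.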

How the data were processed

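Per the labels' protocols, RNA was captured by oligo-dT priming with a molecular identifier and tagmented, so that libraries read mainly the 3' ends of transcripts. Tools named in the submitters' processing notes are MultiQC 1.33, SAMtools 1.21, STAR 2.7 and featureCounts of Subread 2.1.1. The sources used here give neither the build nor the annotation, nor do they say if molecular identifiers were used to collapse reads. The authors deposited CPM, which recomputation from the counts matched within 5.3e-11. The authors also deposited expected counts, of which 13.5% to 16.3% of nonzero values in a library were not whole (tolerance 1e-06), and these were rounded before testing. The 92 ERCC spike-in rows, 582 counts in all, were left out.

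Genes passing filterByExpr (count 10, total 15) were scaled by TMM (factors 0.934 to 1.049) and fitted in 1 quasi-likelihood model of 15 libraries with edgeR 4.0.16 in R 4.3.3, with 12 two-sided contrasts and a threshold of 0.05. Sample groups came from the labels. Alternatives were DESeq2 1.42.0, its size factors, no filter, only the groups compared, a replicate block, leaving out each library, and leaving out the 3 of lowest total. Counts per list under these were added after the data were seen. The members and lists were chosen with earlier results of these data known. Named from each list were at most 3 called genes, by lowest p, and for each called member the 2 nearest genes. Ratios were chosen after values were seen. The fits were tested on simulated counts. A few items held back for evaluation are left out of the text.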

Additional observations from a re-analysis of the deposited data

How the results depend on the processing

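The direction of ACTN1 and ZYX in molded tissue against no mold was the same under every alternative run, and no called value changed sign. The count of called members for the mean of the molded groups was 2, and 1 to 3 with 1 library left out. For the unanchored middle group it was 2, and 1 to 2 with 1 library left out, and for the anchored post group 1, and 0 to 1. Without the 3 shallowest libraries these 3 counts were 1, 1 and 0, and the anchored middle count was 1 where it had been 2. Those fits keep 1 no-mold library, whose spread is taken to be that of the other groups. DESeq2 called 3 members for the mean and 3 for anchored middle, in both cases with ACTN4 added. Over all genes, DESeq2 called 727 higher and 715 lower in anchored middle, among 10456 with an adjusted p. No such count is set beside the 3 members for the mean, so that number is not a result about them. In the other alternatives the counts were within 1.5 times those reported, and between anchored and unanchored molds and between regions they stayed at 0. Values that were not called changed sign in 122 refits, in each case from a size of at most 0.12 on the log2 scale. The labels do not say whether the replicate numbers pair the libraries, and the data do not settle it. Over 30 pairs that share a number, the correlation of their deviations from the group means ran from -0.17 to 0.264, with a median of 0.021, and 6 were over 0.1. Between unanchored post and unanchored middle libraries it was 0.092, 0.107 and 0.264 for pairs that share a number and -0.169 to 0.062 for the others, so that each of these libraries correlated best with its own number, a hint from the data and not from the design. Between anchored post and anchored middle libraries it was -0.029, 0.079 and 0.138 for pairs that share a number. There, anchored middle library 1 correlated better with anchored post library 2 (0.029) than with its own number. With the replicate block all 108 member values kept their call, the count for the mean stayed at 2, and among the lists the kinases gained 1 higher gene, as did the integrins in post against middle. With no filter on low counts, the kinases had 2 higher genes in molded tissue and 1 in post against middle, the LIM and actin-bundle list had 1 higher gene in post where it had 2, and the integrins had 1 higher gene in post. Of the 3 no-mold libraries 2 are the shallowest of all, so in the fit without them depth and the number of no-mold libraries cannot be told apart.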
